A study of Arabidopsis thaliana with 32 samples.

Results

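The response of wild type Arabidopsis thaliana seedlings to their first 1.5 h of light was measured as the difference between 3 Col-0 libraries from illuminated seedlings and 3 Col-0 libraries from dark-grown seedlings, 6 of the 32 libraries of the study, over all 19685 genes of the table. Col-0 (ecotype Columbia), called Col here, is the common laboratory wild type and carries no transgene in these groups. Seeds lay 7 days in the cold, received 1 h of white light to start germination, and then stayed in darkness at 21 °C for 3 days. The dark group (Col dark, 3 libraries) was collected at that point under green safe light, and the light group (Col 1.5 h, 3 libraries) after a further 1.5 h in simulated white light of 100 µmol m−2 s−1. The illuminated seedlings were thus also 1.5 h older, so light and elapsed time cannot be told apart. Each library came from 40 whole seedlings, and nothing states that the 3 libraries of a group came from separate sowings. The limma p-values rest on the spread within groups, pooled over all 32 libraries of the study, and this spread may be technical. The hy5 mutant (labelled hy5/hy5, allele not named in the sources used here), grown and illuminated in the same way with 3 libraries per condition, serves as the comparison. The other groups that enter the pooled spread are lines labelled OX, VP16 and SRDX, dark and after 1.5 h of light. Groups of hy5 and SRDX after 4 h of light enter it too.

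A seedling that germinates in darkness elongates its hypocotyl, keeps its apical hook and cotyledons closed and holds etioplasts in place of chloroplasts. Light absorbed by phytochromes and cryptochromes inactivates the COP1/SPA ubiquitin ligase, which lets transcription factors such as HY5 accumulate, and removes the phytochrome-interacting factors (PIFs), which promote growth in the dark. The switch, called de-etiolation, opens the hook and cotyledons, slows the hypocotyl and builds the photosynthetic apparatus.

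Levels are given in CPM, reads scaled to the library as the authors deposited them. Differences are light minus dark on the scale of log2(CPM + 1), ± the standard error of the fit, so that 1 stands for a change of about 2-fold in an abundant gene and of more than that in a rare one. Rose and fell are used of genes with an adjusted p below 0.05 in limma. Between 13606201 and 21420680 reads per library were counted in these genes, and 3 reads correspond to 0.137 to 0.218 CPM. A whole-seedling library cannot tell more RNA per cell from more cells of a type.

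A large part of the transcriptome differed after 1.5 h of light, and more genes rose by large folds than fell by them. Of the 19685 genes 3534 rose (18.0%) and 3517 fell (17.9%), and no list below should be read without these shares. At a change of at least 2-fold, 1078 genes rose (5.48%) and 455 fell (2.31%). At least 8-fold, 96 rose and 14 fell, and at least 16-fold, 43 rose and 3 fell. The median over all genes was -0.02. The 3 light and the 3 dark libraries did not overlap in 9310 genes, or 47.3% of the table, among them 6783 of the 7051 genes called.

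**Figure D1:**
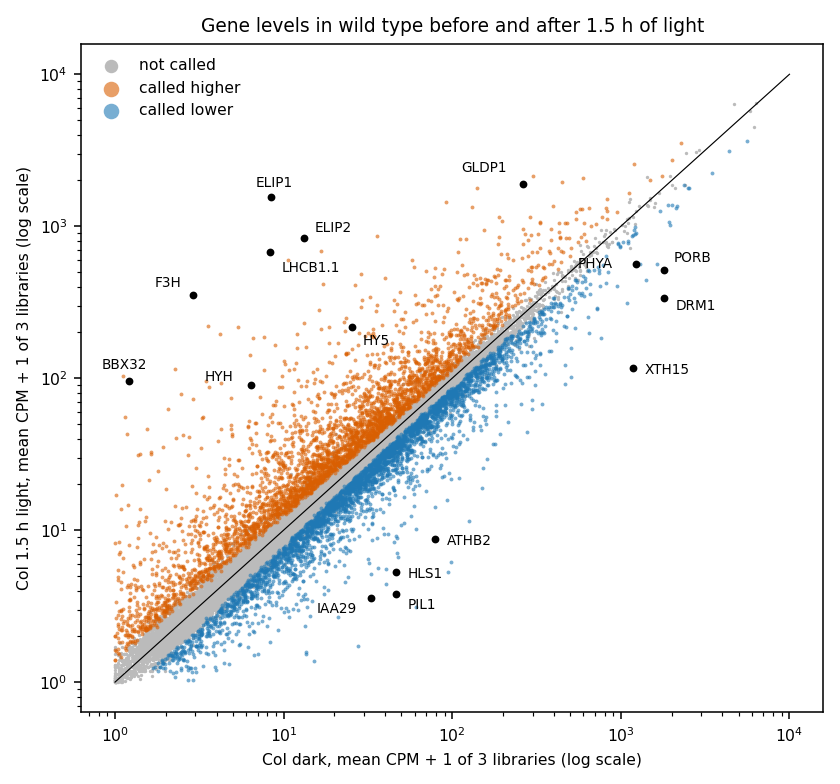
Mean level of each of 19685 genes in 3 dark (x axis) and 3 illuminated (y axis) Col libraries, as CPM + 1 on log axes, with genes that rose in orange, genes that fell in blue and the line of equal levels in black. Named genes far above the line include ELIP1, F3H and BBX32, and those far below include PIL1, HLS1, IAA29 and ATHB2.

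The 2 largest rises and the 2 largest falls among the listed genes of at least 5 CPM are introduced with the DNA just before their transcription start, since the factors named above act on such sequence. ELIP1 encodes an early light-induced protein, a relative of the antenna proteins that protects forming chloroplasts from excess light, and F3H encodes flavanone 3-hydroxylase of the flavonol pathway. PIL1 encodes a small PIF-like transcription factor and XTH15 an enzyme that remodels xyloglucan in cell walls, and both are known from shade avoidance. The 250 bases before each start are given 5′ to 3′ on the gene's strand, from the RefSeq TAIR10.1 genome. Capitals mark each G-box (CACGTG), PBE-box (CACATG or its complement CATGTG) and ACGT core, letters known to be bound by bZIP factors such as HY5 or by PIFs.
ELIP1 (chr3:8085670-8085919, minus strand): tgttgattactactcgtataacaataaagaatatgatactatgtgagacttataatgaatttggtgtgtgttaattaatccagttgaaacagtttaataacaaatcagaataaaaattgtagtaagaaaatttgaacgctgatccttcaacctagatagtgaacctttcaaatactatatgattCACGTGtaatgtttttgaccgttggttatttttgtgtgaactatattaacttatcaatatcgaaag
F3H (chr3:19024942-19025191, plus strand): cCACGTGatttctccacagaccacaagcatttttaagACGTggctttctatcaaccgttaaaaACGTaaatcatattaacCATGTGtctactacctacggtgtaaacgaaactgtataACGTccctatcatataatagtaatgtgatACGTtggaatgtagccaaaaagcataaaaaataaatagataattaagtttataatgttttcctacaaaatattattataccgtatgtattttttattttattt
PIL1 (chr2:19297859-19298108, minus strand): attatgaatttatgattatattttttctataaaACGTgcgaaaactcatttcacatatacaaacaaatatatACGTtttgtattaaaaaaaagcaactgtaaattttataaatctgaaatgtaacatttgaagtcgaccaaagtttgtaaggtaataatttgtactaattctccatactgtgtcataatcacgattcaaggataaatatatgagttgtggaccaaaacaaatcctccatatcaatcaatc
XTH15 (chr4:8138393-8138642, minus strand): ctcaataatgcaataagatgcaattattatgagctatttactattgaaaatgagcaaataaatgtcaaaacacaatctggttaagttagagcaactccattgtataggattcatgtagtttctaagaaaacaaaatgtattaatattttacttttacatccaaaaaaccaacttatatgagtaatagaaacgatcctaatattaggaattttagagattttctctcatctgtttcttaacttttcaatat
The ELIP1 sequence holds 1 G-box, whose first letter lies 66 bases before the start. That of F3H holds 1 G-box 249 bases before the start, 4 further ACGT cores and 1 PBE-box. Its last part also lies in an exon of AT3G51238, a noncoding RNA annotated on the opposite strand. PIL1 has 2 ACGT cores outside any G-box, and XTH15 has none of these letters in this window.

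ELIP1 (AT3G22840) stood at 7.44, 4.84 and 9.89 CPM in the dark libraries and 1914, 1365 and 1401 CPM in the light libraries. Every light library lay more than 100-fold above every dark library. The difference of 7.57 ± 0.35 was the highest among the genes with no overlap and at least 5 CPM (limma adjusted p = 4.0e-17). F3H (AT3G51240) was measured at 1.8, 1.73 and 2.21 CPM in the dark libraries and 355, 318 and 381 CPM in the light libraries, a difference of 6.92 ± 0.19 (limma adjusted p = 3.7e-22). AT3G51238 is not among the genes tested, and reads from F3H and from it could be told apart only if the counting used strand. At the other end, PIL1 (AT2G46970) had 45.2, 47.2 and 43.1 CPM in the dark libraries and 3.33, 3.06 and 2.04 CPM in the light libraries. Its light and dark libraries were far apart, at -3.61 ± 0.14 (limma adjusted p = 3.0e-19). XTH15 (AT4G14130) went from 1069, 1148 and 1319.7 CPM in the dark libraries to 117, 122 and 106 CPM in the light libraries. No library of one group came near the other, and the difference was -3.34 ± 0.14 (limma adjusted p = 3.2e-18).

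Among regulators of light signalling, both bZIP factors at its centre rose. HY5 (AT5G11260), which activates many light-induced genes, had 21.7, 22.0 and 30.0 CPM in the dark libraries and 208, 207 and 232 CPM in the light libraries, and it rose by 3.1 ± 0.13 (limma adjusted p = 1.6e-18). In the hy5 mutant the same transcript stood at 21.4, 19.4 and 24.4 CPM in the dark and at 25.2, 25.1 and 25.1 CPM after light, so the mutant locus was still transcribed and the transcript level alone does not show the allele. The wild type light libraries lay far above all 9 others of these genotypes. HYH (AT3G17609), the closest relative of HY5, had 5.64, 4.95 and 5.72 CPM in the dark libraries and 99.8, 81.8 and 85.8 CPM in the light libraries and rose by 3.8 ± 0.15. The groups did not overlap for either gene.

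The repressors that act against light signalling, or that damp it again, rose as well. Of 10 genes for COP1, the SPA proteins, DET1 and its partners and the RUP proteins, 6 rose and 0 fell, with a median of 1.97 against -0.02 over all genes. RUP2 (AT5G23730), a WD40 protein that returns the UV-B receptor UVR8 to its inactive form, had 3.2, 2.03 and 4.36 CPM in the dark libraries and 205, 184 and 191 CPM in the light libraries, which was a rise of 5.57 ± 0.22. Its partner RUP1 rose by 4.22 ± 0.18. SPA1, SPA3 and SPA4, which form the ligase together with COP1, rose by 3.5, 3.18 and 2.56, and COP1 itself by 1.38 ± 0.09. SPA2 stood at 0.25 and did not pass the test, nor did DET1, COP10 and DDB1A, though SPA2 was called higher without dark replicate 2.

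Photoreceptor genes moved in both directions, with 5 of 13 higher, 3 lower and a median of -0.03. PHYA (AT1G09570), the phytochrome that accumulates in darkness and is unstable in light, had 1195, 1352 and 1119.6 CPM in the dark libraries and 497, 594 and 589 CPM in the light libraries. The dark libraries all lay above the light libraries, and PHYA fell by 1.12 ± 0.11 on the log2 scale (limma adjusted p = 1.2e-09). PHOT1, a blue-light receptor of phototropism, fell further, from 506 ± 12.7 to 157 ± 9.02 CPM (SD, n = 3), a difference of -1.69 ± 0.10. PHOT2, the phototropin of stronger light, rose by 1.36 ± 0.08. PHYB, the main phytochrome of light-grown plants, rose by 0.86 ± 0.09, PHYE by 0.57 and the blue-light F-box receptor ZTL by 0.80. Transcripts of the cryptochromes CRY1 (-0.12) and CRY2 (-0.26) did not pass the test, CRY2 being called lower without light replicate 3. Of 10 genes of phytochrome A signalling 2 rose, 3 fell and 5 did not pass the test (median -0.03). Among them FHY1 and FHL, which carry phytochrome A into the nucleus, fell by 2.41 ± 0.14 and 1.76 ± 0.13 on the log2 scale. PKS1 (AT2G02950), a phytochrome kinase substrate, rose from 9.13 ± 1.18 to 123 ± 7.42 CPM, a difference of 3.62 ± 0.10.

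The PIF genes split too, with 4 of 7 higher and 2 lower. PIF3, which is abundant in darkness, fell by 1.03 ± 0.14 on the log2 scale, and PIF6 by 1.5 ± 0.17. AT3G09745 on the opposite strand overlaps 96.3% of PIF6, so the value of PIF6 is uncertain if counting ignored strand. PIF4 and PIF5 rose by 0.98 and 1.82, PIF7 by 2.09 from under 1 CPM, and PIF8 by 2.6. These are transcript levels, while PIF activity is known to be set mainly by the stability of the proteins.

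B-box zinc-finger proteins work beside HY5 and COP1 in light signalling. Of 23 listed genes 16 rose and 6 fell (median 1.57), and the groups overlapped for 1 of them, COL3 (0.14). BBX32 (AT3G21150) went from 0.116, 0.298 and 0.195 CPM, at about the level of a few reads, to 83.9, 90.2 and 112 CPM, a difference of 6.32 ± 0.15. BBX25 (AT2G31380) rose by 5.0 ± 0.13 from 1.22, 1.25 and 1.89 CPM to 81.5, 68.9 and 81.4 CPM. Both stood far above the dark level in every light library. BBX30 and BBX31, both short relatives, rose by 4.04 and 3.67 from under 0.137 CPM in the mean of the dark group. BBX24, which counteracts HY5, rose by 2.77, and BBX22, which acts with HY5, by 1.57. In the other direction BBX23 (AT4G10240) fell from 13.1, 12.1 and 12.4 to 0.196, 0.274 and 1.24 CPM, a difference of -3.17 ± 0.20. COL8, BBX20 and BBX21 fell by 2.33 ± 0.23, 1.63 ± 0.16 and 1.22 ± 0.09 on the log2 scale.

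Genes that PIFs are known to activate in darkness or shade fell together. Of 17 listed, 0 rose, 11 fell and 6 did not pass the test, with a median of -0.92, and their summed share of reads went from 0.206 ± 0.01% in the dark to 0.0545 ± 0.0017% in light (SD, n = 3 each). ATHB2 (AT4G16780), the homeodomain factor that marks shade avoidance, had 74.6, 82.9 and 77.1 CPM in the dark libraries and 7.44, 7.53 and 8.08 CPM in the light libraries. The 2 groups lay about 10-fold apart, a difference of -3.19 ± 0.10 (limma adjusted p = 3.1e-21). IAA29 fell by 3.24 ± 0.17 on the log2 scale. PAR1, a helix-loop-helix brake on shade growth, fell by 2.75 ± 0.16. The auxin synthesis gene YUC8 fell by 0.48 ± 0.11, while YUC2 (-0.20), YUC5 (0.29) and YUC9 (-0.35) stayed under 2 CPM and did not pass the test. Without light replicate 3, YUC5, 1 of the 17, was called higher.

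**Figure D2:**
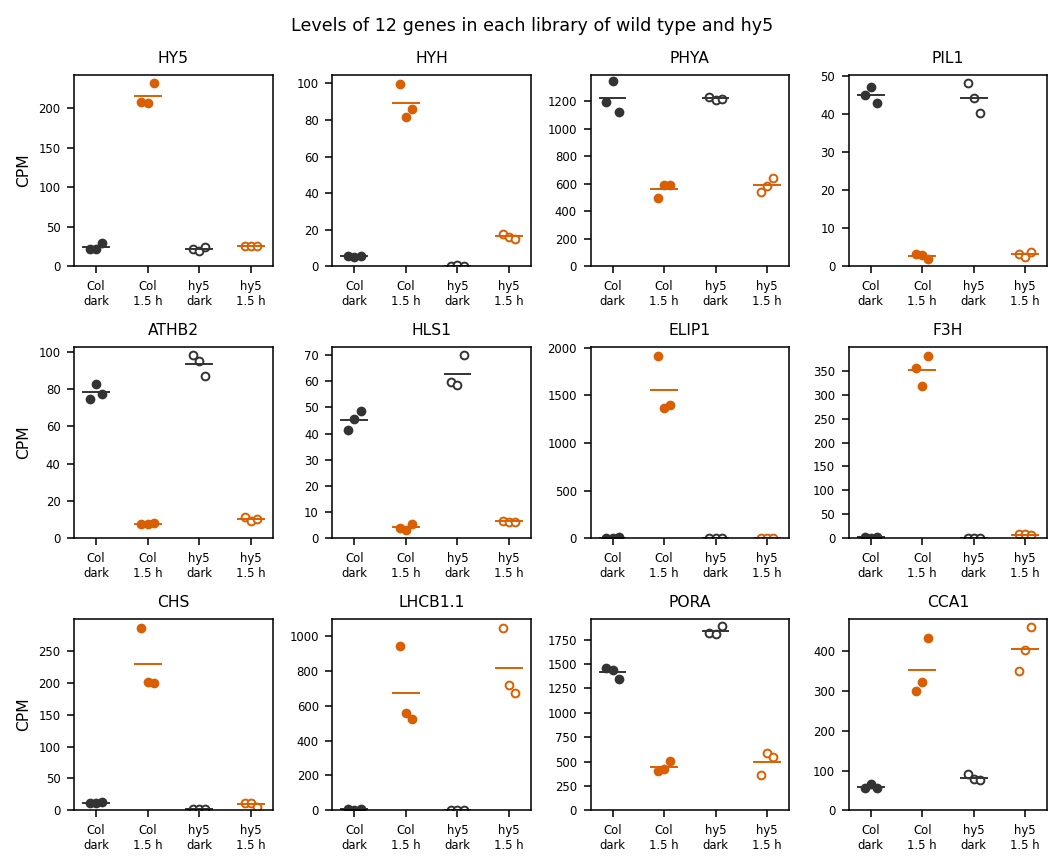
CPM of 12 genes in each of 3 libraries (points) with the group mean (bar) for Col dark, Col 1.5 h, hy5 dark and hy5 1.5 h, each axis starting at 0. HY5, ELIP1, F3H and CHS were high in the Col light libraries alone, whereas PIL1, ATHB2, HLS1 and PORA were low after light in both genotypes.

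Auxin-related transcripts were mostly lower after light. Among 24 SAUR genes, small auxin-induced proteins known to promote cell expansion, 18 fell and 2 rose, with a median of -0.83. SAUR22 had 11.7, 13.6 and 12.2 CPM in the dark libraries and 3.0, 2.69 and 2.77 CPM in the light libraries and fell by 1.82 ± 0.15 on the log2 scale. SAUR16 fell by 1.05 ± 0.18 and SAUR9 by 1.88 ± 0.16. SAUR14 went the other way, from 3.43, 3.7 and 5.85 CPM to 36.5, 25.8 and 21.9 CPM, a rise of 2.45 ± 0.21. Genes of the clusters SAUR19 to SAUR24 and SAUR61 to SAUR68 are nearly identical in sequence, so that their separate values are uncertain. When genes below a mean of 5 CPM were left out, 10 SAUR genes were called lower.

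Of 23 Aux/IAA genes, repressors that auxin induces and whose proteins it destroys, 12 fell and 5 rose (median -0.25). IAA20 fell by 2.05 ± 0.19, IAA6 by 1.73 ± 0.16 and IAA19 by 1.53 ± 0.21 on the log2 scale, while IAA28 (AT5G25890) rose from 8.76 ± 2.21 to 46.4 ± 1.03 CPM, a difference of 2.31 ± 0.14. In the list of auxin carriers and conjugating enzymes 11 of 18 fell and 5 rose (median -0.45). The importers AUX1 and LAX3 fell by 0.80 ± 0.09 and 0.70 ± 0.09 on the log2 scale, and PID, the kinase that directs PIN carriers, by 0.91 ± 0.17. Among exporters PIN4 rose by 0.85 ± 0.12 and PIN3 by 0.41 ± 0.11, and of the conjugating enzymes GH3.6 rose by 1.02 where GH3.2 fell by 1.02 ± 0.15.

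Of 20 genes of gibberellin, a hormone that promotes dark growth, 5 rose and 11 fell. The 5 that rose include 3 gibberellin 2-oxidases, which inactivate the hormone. GA2OX1 (AT1G78440) had 0.349, 0.478 and 0.39 CPM in the dark libraries and 31.1, 30.3 and 30.6 CPM in the light libraries, a rise of 4.49 ± 0.19 (limma adjusted p = 5.3e-18). Its dark libraries held a few reads each and the light libraries lay within 1 CPM of each other. GA2OX2 rose by 2.67 ± 0.17 and GA2OX8 by 1.6 ± 0.15, while GA2OX6 fell by 1.3 ± 0.23 on the log2 scale. The synthesis gene GA3OX1 fell by 0.75 ± 0.16 and its relative GA3OX2 rose by 2.53 ± 0.20. GAI, a DELLA repressor of gibberellin responses, fell by 1.48 ± 0.11 and the gibberellin-induced GASA4 by 0.84 ± 0.18. Without genes below a mean of 5 CPM, 3 genes of the list were called higher.

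Brassinosteroid genes did not move one way, with 4 of 13 higher and 5 lower (median 0.01). BAS1, which inactivates brassinosteroids, fell by 1.43 ± 0.11 on the log2 scale and DWF1 of the synthesis pathway by 0.54 ± 0.09. ROT3, BR6OX1 and BR6OX2, also of synthesis, rose by 0.74, 0.66 and 0.72.

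Ethylene and apical hook genes had 10 of 15 lower and 0 higher (median -0.52). HLS1 (AT4G37580), HOOKLESS1, without which no hook forms, had 41.5, 45.4 and 48.8 CPM in the dark libraries and 4.11, 3.33 and 5.38 CPM in the light libraries. All light libraries were below all dark libraries by a wide margin, and HLS1 fell by 3.15 ± 0.18 on the log2 scale (limma adjusted p = 4.8e-15). ACS5 and ACS8, which make the ethylene precursor, fell by 2.73 ± 0.19 and 1.86 ± 0.20. The receptors ETR2 and ERS1 and the F-box gene EBF2, which ethylene induces, fell by 1.64 ± 0.15, 1.13 ± 0.11 and 1.51 ± 0.16. EIN3 itself, the transcription factor of the pathway, fell by 0.37 ± 0.09.

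Wall-loosening enzymes and tubulins followed. Of 27 expansin and XTH genes 14 fell and 7 rose (median -0.51). EXPA9 had 238, 266 and 264 CPM in the dark libraries and 63.4, 64.3 and 70.8 CPM in the light libraries, a difference of -1.94 ± 0.09, and XTH30, XTH33, XTH19, XTH18 and XTH17 fell by 2.04 ± 0.11, 1.99 ± 0.20, 1.7 ± 0.19, 1.36 ± 0.19 and 1.26 ± 0.15 on the log2 scale. Members that rose include EXPA1 (1.88 ± 0.13), EXPA10 (2.01 ± 0.19), XTH22 (1.0), EXPA15 (0.97) and EXPA5 (0.83). Of the 9 beta-tubulin genes 8 fell, TUB8 by 1.14 ± 0.09 and TUB5 by 0.90 ± 0.08, and TUB7 rose by 0.70 ± 0.09. The summed share of the tubulins went from 0.36 ± 0.00317% to 0.242 ± 0.005%.

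Genes for the photosynthetic apparatus rose. All 21 light-harvesting antenna genes measured and all 30 photosystem and electron transport genes measured rose, with medians of 2.15 and 1.16. LHCB1.1 (AT1G29920), an antenna protein of photosystem II, had 8.37, 4.78 and 8.72 CPM in the dark libraries and 939, 556 and 526 CPM in the light libraries. The illuminated libraries varied among themselves by less than 2-fold and lay far above the dark libraries, a difference of 6.33 ± 0.27 (limma adjusted p = 4.7e-18). LHCA1, of photosystem I, rose from 90.5 ± 26.7 to 1453 ± 273 CPM (SD, n = 3), by 4.02 ± 0.19. The antenna genes differed among themselves, from 0.78 for LHCA2 to LHCB1.1. The LHCB1 and the LHCB2 genes are near-identical within each family, and how shared reads were assigned is not given in the sources used here. Together the antenna genes held 0.512, 0.363 and 0.613% of reads in the dark libraries and 2.09, 1.49 and 1.46% in the light libraries. The groups did not overlap, and the spread within each was wide. LHCB1.3 lost its call without dark replicate 2 (limma adjusted p = 0.0534).

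Photosystem subunits rose by less, from 0.37 for the ferredoxin reductase gene FNR2 to 2.14 for PSBO2, a subunit of the oxygen-evolving complex. PSAD1 of photosystem I rose by 1.54 ± 0.21 and the ferredoxin gene FD2 by 1.77 ± 0.12. FNR2 lost its call without light replicate 1, and PSAE2 (0.58), whose groups overlapped, without light replicate 1 or dark replicate 2. Of 21 Rubisco and Calvin cycle genes 14 rose and 0 fell (median 0.54), and 1, CP12-3, was called lower without dark replicate 2. RBCS1B, a Rubisco small subunit, rose by 2.82 ± 0.23, whereas RBCS1A (0.43), RBCS2B (0.02) and RBCS3B (0.62) did not pass the test and share much of their sequence with it. Without dark replicate 3, RBCS1A and RBCS3B were called higher. RCA, the Rubisco activase, rose by 1.78 ± 0.16, CP12-2, a redox switch of the cycle, by 2.8 ± 0.15, and FBA1, an aldolase, by 2.36 ± 0.17. Photorespiration, which recovers the product of Rubisco's oxygenation, had 8 of 9 genes higher, led by GLDP1 (AT4G33010) of glycine decarboxylase, from 263 ± 0.326 to 1898 ± 215 CPM, a difference of 2.84 ± 0.15.

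Chlorophyll synthesis genes mostly rose, with PORA and PORB among the exceptions. Of 30 tetrapyrrole genes 19 rose and 3 fell (median 0.42), against 18.0% and 17.9% of all genes. PORA (AT5G54190), the light-dependent protochlorophyllide reductase of etiolated seedlings, had 1456, 1435 and 1350.1 CPM in the dark libraries and 401, 424 and 506 CPM in the light libraries. PORB (AT4G27440) had 1852, 1678 and 1890.1 CPM in the dark libraries and 481, 522 and 535 CPM in the light libraries. In both genes the light libraries lay at less than 0.5 times the dark ones, and they fell by 1.68 ± 0.24 and 1.81 ± 0.16 on the log2 scale (limma adjusted p = 1.1e-06 and 1.3e-10). PORC, the form of green tissue, rose by 1.13 ± 0.13. The largest rises were those of GUN4 (3.28 ± 0.26) and CHLH (2.83 ± 0.12). CHLH is a subunit of the magnesium chelatase that opens the chlorophyll branch, and GUN4 an activator of that enzyme. AT3G59410 on the opposite strand overlaps 73.0% of GUN4, so the value of GUN4 is uncertain if counting ignored strand. CAO, which makes chlorophyll b, rose by 2.38 ± 0.09, HEMA1, the entry enzyme of the pathway, by 1.98 ± 0.11, and CRD1 of the cyclase by 1.73 ± 0.14. In the carotenoid list 15 of 17 rose and 0 fell (median 0.56). The leaders were PSY (2.37 ± 0.10), the first committed enzyme, ZEP (2.32 ± 0.09) and BCH2 (2.23 ± 0.13), both of the xanthophyll branch.

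Nuclear regulators of the chloroplast had 11 of 11 genes higher (median 1.1). SIG5 (AT5G24120), a sigma factor that directs the plastid RNA polymerase, had 2.73, 2.39 and 2.6 CPM in the dark libraries and 183, 220.3 and 259 CPM in the light libraries, a difference of 5.94 ± 0.16. CGA1 (AT4G26150), a GATA factor of chloroplast development, went from 0.233, 0.179 and 0.13 to 58.2, 36.3 and 31.1 CPM, a difference of 5.13 ± 0.26. GLK2, one of a pair of factors that activate photosynthesis genes, rose by 2.82 ± 0.15 and GLK1 by 1.1 ± 0.15. Poly(A)-selected libraries hold few transcripts of the chloroplast's own genome, and the part of this in their values was not tested. The genes of that genome did not follow, as 0 of 71 rose and 10 fell, against 18.0% and 17.9% of all genes. Their summed share was 0.614, 0.586 and 0.271% in the dark libraries and 0.389, 0.364 and 0.144% in the light libraries. The groups overlapped, and an exact two-sided permutation test gave p = 0.3, where 3 against 3 libraries cannot go below 0.1. Mitochondrial genes held 0.175 ± 0.0545% and 0.111 ± 0.0195% (exact permutation p = 0.2; SD, n = 3), with 0 of 15 higher and 8 lower.

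Assimilation genes rose with them. Of 14 nitrogen and sulphur genes 9 rose and 0 fell (median 0.95). APR2 (AT1G62180), which reduces activated sulphate, rose from 32.7 ± 4.83 to 208 ± 26.0 CPM, by 2.64 ± 0.16. NIA2, a nitrate reductase, rose by 1.64 ± 0.15, NIR1, the nitrite reductase, by 1.43 ± 0.14, and GLU1, the ferredoxin-dependent glutamate synthase, by 1.08 ± 0.13.

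**Figure D3:**
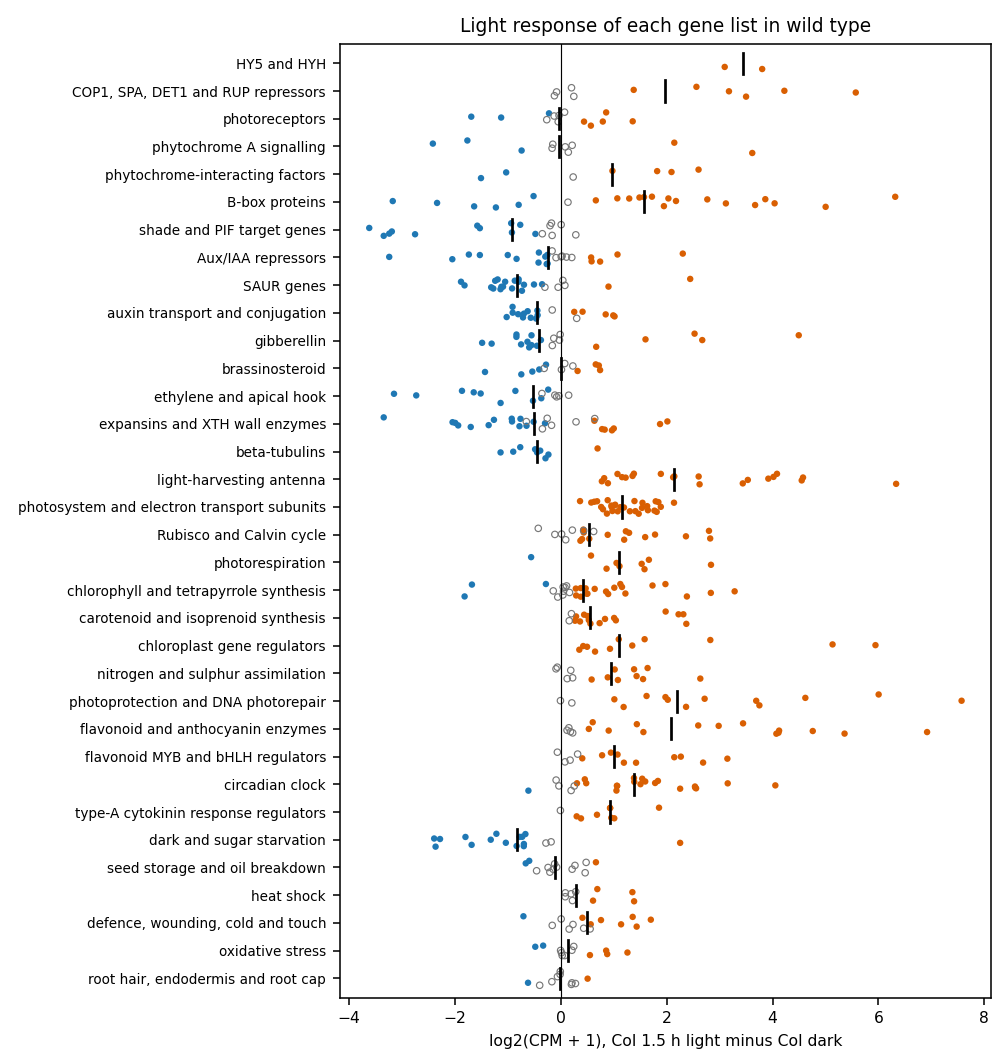
Difference in log2(CPM + 1) between Col 1.5 h and Col dark for each measured gene (point) of 34 lists, in orange where it rose, in blue where it fell and open grey where it did not pass the test, with the median of the list as a black bar. Antenna, photosystem and chloroplast regulator genes lie wholly to the right of 0, and shade, SAUR, ethylene and starvation genes mostly to the left.

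Genes for protection against light and repair of its damage had a median of 2.19, with 12 of 14 higher and 0 lower. ELIP2 (AT4G14690), the second early light-induced protein, had 13.5, 8.66 and 14.7 CPM in the dark libraries and 973, 756 and 784 CPM in the light libraries, a rise of 6.0 ± 0.24. CRY3, a cryptochrome of the DASH type that repairs DNA, rose by 4.62 ± 0.17, and the photolyase PHR1 by 3.75 ± 0.18. VTC2 (AT4G26850), which sets the rate of ascorbate synthesis, had 137, 119.5 and 158 CPM in the dark libraries and 1787, 1779 and 1797 CPM in the light libraries, a difference of 3.69 ± 0.09. SEP2 and OHP1, relatives of the antenna proteins, rose by 2.72 and 2.02, and PSBS, needed to dissipate excess energy, by 1.98 ± 0.12. The other photolyase UVR3 (-0.00) and the de-epoxidase VDE (0.21) did not pass the test, VDE being called higher without light replicate 1. The share of reads from these 14 genes went from 0.0698 ± 0.00664% to 0.615 ± 0.0509%.

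Flavonoid enzymes rose along the flavonol branch and stayed near the floor along the anthocyanin branch. Of 18 genes 14 rose and 0 fell (median 2.08). CHS (AT5G13930), chalcone synthase at the entry, had 10.9, 12.4 and 13.1 CPM in the dark libraries and 286, 201 and 199 CPM in the light libraries. All light libraries stood more than 10-fold above the dark ones, a difference of 4.11 ± 0.24 (limma adjusted p = 7.4e-15). CHI and CHIL, which act on its product, rose by 4.07 ± 0.21 and 4.76 ± 0.24, FLS1, flavonol synthase, by 3.44 ± 0.22, and UGT78D2, a flavonoid glucosyltransferase, by 5.36 ± 0.16. Upstream, C4H rose by 1.56 ± 0.09, PAL2 by 1.44 ± 0.11 and PAL1 by 0.91 ± 0.08 in the phenylpropanoid route. 4CL3, the ligase isoform of flavonoid synthesis, rose by 4.12 ± 0.28, while 4CL1 (0.18) did not pass the test. The late anthocyanin enzyme DFR had 0, 0.0597 and 0 CPM in the dark libraries and 0.196, 0.137 and 0.0728 CPM in the light libraries, and LDOX 0, 0 and 0 CPM in the dark libraries and 0.196, 0 and 0.0728 CPM in the light libraries. No library reached 0.5 CPM of either gene, and neither passed the test.

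Of 14 MYB and bHLH regulators of these enzymes 10 rose and 0 fell (median 1.01), or 4 when genes below a mean of 5 CPM were left out. MYB111 (AT5G49330), an activator of flavonol genes, went from 3.37 ± 1.34 to 17.9 ± 3.28 CPM (SD, n = 3), a rise of 2.14 ± 0.24. Its relative MYB12 (AT2G47460) went from 0.0581, 0.119 and 0 to 4.57, 5.71 and 7.5 CPM, a rise of 2.69 ± 0.17. MYB75 (AT1G56650), known as PAP1 and an activator of anthocyanin genes, had 0.116, 0.179 and 0.195 CPM in the dark libraries and 12.9, 9.45 and 6.55 CPM in the light libraries, a rise of 3.15 ± 0.24. The dark libraries of these last 2 genes held few reads or none. TT8 (0.08), a bHLH partner of MYB75, did not pass the test.

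The circadian clock genes moved mostly upward, with 19 of 24 higher and 1 lower (median 1.39). The morning genes CCA1 (AT2G46830) and LHY (AT1G01060) rose by 2.54 ± 0.12 and 2.56 ± 0.10, CCA1 from 56.3, 65.2 and 55.3 to 300.4, 321 and 431 CPM. PRR9 (AT2G46790), a light-induced repressor of them, rose by 4.05 ± 0.19, and LNK1, a coactivator, by 3.15 ± 0.13. Of evening genes GI rose by 2.26 ± 0.12 and ELF4 by 2.54 ± 0.23, while TOC1 (-0.09) and LUX (-0.03) did not pass the test and BOA fell by 0.61 ± 0.13 on the log2 scale. Type-A response regulators, which cytokinin induces and which damp its signal, had 8 of 9 higher (median 0.93), with ARR7 at 1.86 ± 0.23 and ARR4 at 0.95 ± 0.10.

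Genes of darkness and sugar starvation fell in 14 of 17 cases and rose in 1 (median -0.83). DRM1 (AT1G28330), a dormancy-associated gene, had 1772, 1302 and 2324 CPM in the dark libraries and 346, 277 and 388 CPM in the light libraries. The dark libraries lay at least 3-fold above the light ones, and DRM1 fell by 2.39 ± 0.24 on the log2 scale (limma adjusted p = 1.3e-09). ASN1, asparagine synthetase of carbon-starved tissue, fell by 2.36 ± 0.21, SEN1 by 2.28 ± 0.25, and DIN10 by 1.8 ± 0.17. The exception was DIN9 (AT1G67070), a phosphomannose isomerase, which rose from 13.5 ± 0.617 to 68.3 ± 2.02 CPM, by 2.26 ± 0.11. The list's share of reads went from 0.678 ± 0.0407% to 0.235 ± 0.0302%.

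Lists for stage, tissue and handling were measured as well. Seed storage and oil breakdown genes had 1 of 13 higher and 2 lower (median -0.11), and PCK1, which turns seed oil into sugar, fell by 0.66 ± 0.15 on the log2 scale. The summed share of the seed list was 1.07, 0.913 and 0.911% in the dark libraries and 0.561, 0.747 and 0.655% in the light libraries, without overlap. Taken singly, 4 of its 13 genes did not overlap between the groups, against 47.3% of all genes. The sum was not tested. Of the seed genes 0 were called higher without dark replicate 2 or light replicate 2 and 2 without light replicate 3, and 1 was called lower without dark replicate 1 or 2 or light replicate 1 or 3. The root hair, endodermis and root cap genes had 1 of 10 higher and 1 lower (median -0.01), with a summed share of 0.0241 ± 0.00332% and 0.0282 ± 0.00118% in dark and light. Without dark replicate 3, 2 of the root genes were called higher. Of 9 heat shock genes 4 rose, HSP70 by 1.39 ± 0.24 and HSFA2 by 1.35 ± 0.32, and 2 were called without dark replicate 1 or 3 or without light replicate 1 or 2. The small heat shock proteins, such as HSP22 (0.20) and HSP23.6 (0.22), did not pass the test. The summed share of the heat shock list was 0.0386, 0.0443 and 0.0323% in the dark libraries and 0.0878, 0.0894 and 0.0572% in the light libraries, again without overlap. Of its 9 genes 5 did not overlap, and this sum was not tested either. In the list of defence, wounding, cold and touch genes 7 of 14 rose and 1 fell (median 0.49), and the cold-response factors CBF1 and CBF3 rose by 1.36 and 1.7 from under 1 CPM. Among oxidative stress genes 4 of 12 rose and 2 fell, CAT2, the catalase of photorespiration, rising by 0.88 ± 0.11 and CAT3, another catalase, falling by 0.48 ± 0.13. Without dark replicate 2 or 3 or light replicate 1, 1 of them was called lower. With the replicate number as a block, CAT3 lost its call. The summed share of the oxidative stress list overlapped between groups, at 0.713, 0.781 and 0.776% in the dark libraries and 0.692, 0.722 and 0.743% in the light libraries. Calls in the seed list were no more frequent than over all genes (18.0% higher, 17.9% lower), though its summed share, which was not tested, was lower in light. The heat shock list and the defence, wounding, cold and touch list moved with the light groups at the sizes given. The part of the seed, stress and handling lists in the other results was not tested.

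Several of the largest changes belong to genes on no list. Of the 15 highest genes by the rule stated with the processing, 10 are in the lists above. The other 5 are AT5G42760 (annotated as a leucine carboxyl methyltransferase), AT3G56290 (annotated as a potassium transporter), THI2.2 (a thionin, an antimicrobial peptide) and the ABC proteins ABCI20 and ABCI21. AT5G42760 went from 0.116, 0.119 and 0.13 to 112, 96.9 and 98.8 CPM, a difference of 6.53 ± 0.12. ABCI21 (AT5G44110) had 10.2, 10.4 and 8.19 CPM in the dark libraries and 549.9, 577 and 654 CPM in the light libraries, and ABCI20 (AT5G02270) had 17.3, 14.7 and 14.6 CPM in the dark libraries and 677, 672 and 721 CPM in the light libraries, differences of 5.81 ± 0.12 and 5.39 ± 0.09. In all of these the light libraries lay far above the dark ones. AT2G15020, an uncharacterized protein, had 0 reads in every dark library and 6.85, 6.99 and 7.93 CPM in the light libraries, at least 39.7-fold higher against a floor of 3 reads per library.

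Of the 15 lowest genes 6 are in the lists. Outside them AT5G57760 (uncharacterized) had 57.6, 56.8 and 65.3 CPM in the dark libraries and 1.57, 1.78 and 3.06 CPM in the light libraries, the lowest difference of the 15 at -4.31 ± 0.23. GRF7 (AT5G53660), a growth-regulating factor, had 92.7, 97.6 and 88.6 CPM in the dark libraries and 3.0, 3.97 and 6.04 CPM in the light libraries, a difference of -4.18 ± 0.20. The groups did not overlap for either. AT5G44260, a zinc-finger protein, fell by 4.01 ± 0.19 on the log2 scale, RTFL21, a small growth peptide, by 3.99 ± 0.16, ST2A, a sulfotransferase of jasmonate breakdown, by 3.46 ± 0.13, and the homeodomain gene HB52 by 3.22 ± 0.19. AT4G09530, annotated as a SAUR-like protein and the kinase gene SNRK2.5 fell by 3.46 ± 0.20 and 2.99 ± 0.12.

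The study also illuminated hy5, and the question is how far the wild type response was also measured in the mutant. The 2 responses share no library. In hy5 3219 genes rose and 3089 fell. Of the genes that rose in Col 66.9% also rose in hy5, and of those that fell 61.6% also fell. Taken from hy5, the shares were 73.4% and 70.1%. Across the 19685 genes, which are not independent replicates, the 2 differences had a Pearson r of 0.819. The interaction contrast, Col response minus hy5 response, was above 0 in 571 genes (2.9%) and below 0 in 219 (1.11%) at a limma adjusted p below 0.05.

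**Figure D4:**
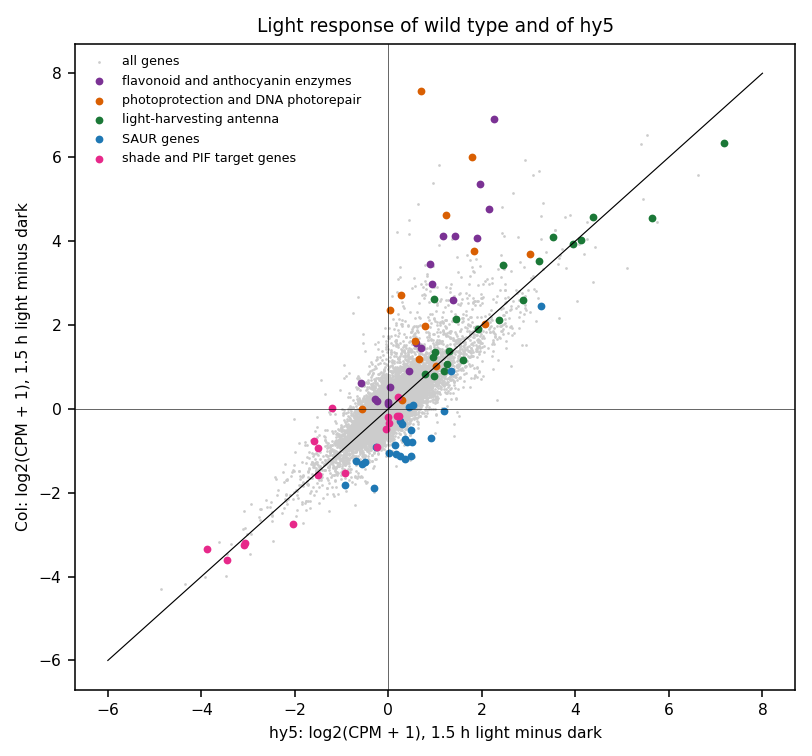
Difference in log2(CPM + 1) between 1.5 h of light and dark in hy5 (x axis) and in Col (y axis) for all genes (grey) and for 5 lists (colours), with the line of equal responses. Flavonoid and photoprotection genes lie above the line, antenna and shade genes near it, and SAUR genes below it.

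A different response in hy5 was called for some of the rises and some of the falls. The Col libraries both chose these genes and enter the interaction, so the shares are a description, and their difference was not tested. Of the 1078 genes that rose at least 2-fold in Col, 383 (35.5%) had a different response in hy5, against 55 of the 455 that fell at least 2-fold (12.1%). Among the 15 highest genes 13 had a different response, and among the 15 lowest 0. ELIP1 stood at 2.84, 3.36 and 4.14 CPM in dark and 5.59, 6.95 and 6.13 CPM in illuminated hy5 libraries, so that its response was larger in Col by 6.86 ± 0.49 (limma adjusted p = 2.3e-11). F3H had 8.45, 8.92 and 6.23 CPM in illuminated hy5 and a response larger in Col by 4.66 ± 0.27. LHCB1.1, by contrast, reached 1045, 719 and 675 CPM in hy5, and its interaction of -0.84 ± 0.38 did not pass the test (limma adjusted p = 0.31).

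By list, the flavonoid enzymes had 13 of 18 genes with a larger response in Col and a median of 0.80 in hy5 against 2.08 in Col. Photoprotection had 10 of 14 (0.75 against 2.19) and the flavonoid regulators 6 of 14 (0.13 against 1.01), MYB12, MYB111 and MYB75 among them. RUP1 rose by 4.22 in Col and stood at 0.19 in hy5, a difference of 4.03 ± 0.25 (limma adjusted p = 7.3e-13). GA2OX1 stood at 0.44 in hy5, with an interaction of 4.06 ± 0.27. Antenna genes had 1 of 21, LHCB7, with a larger response in Col, and photosystem genes 0 of 30. Of the 17 shade and PIF targets, HAT2 had a lower response in Col (-0.68), and CKX5 (0.82) and BIM1 (1.21) a higher one.

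SAUR genes showed the reverse order. Of 24, 15 had a lower response in Col than in hy5, and the median was 0.31 in hy5 against -0.83 in Col. SAUR9 (AT4G36110) had 14.1, 11.7 and 12.2 CPM in dark and 8.77, 11.5 and 10.1 CPM in illuminated hy5 libraries, against 10.9, 11.5 and 10.2 and 3.13, 1.92 and 1.75 CPM in Col. The Col light libraries lay below all the others, an interaction of -1.58 ± 0.23 (limma adjusted p = 1.4e-05). XTH33 had an interaction of -1.69 ± 0.29. CCD4 (AT4G19170), a carotenoid-cleaving enzyme, stood at 6.33, 6.21 and 5.17 CPM in illuminated Col and at 42.5, 26.3 and 35.1 CPM in illuminated hy5. Its interaction, which also takes in the dark libraries, was -2.11.

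Upstream letters differed between the groups of genes as a description, without a test. In the 250 bases before the start, a G-box was found in 13.2% of the 1078 genes that rose at least 2-fold, in 8.39% of the 453 nuclear genes that fell as far, and in 7.56% of all 19581 nuclear genes measured with such a window. An ACGT core, which every G-box contains, was found in 53.3%, 45.7% and 44.7%. The PBE-box was found in 13.3%, 20.1% and 11.2%. It was found in 29.2% of the 219 genes whose response was lower in Col than in hy5. Without the SAUR genes among them it was found in 25.5% of the 204 left. Over the whole SAUR list, in this set or not, 18 of the 24 genes hold it. The telo box (AAACCCTA), known from genes of the translation apparatus, was found in 1.67%, 0.883% and 3.5%, and site II elements (TGGGCC or TGGGCT), known from the same class, in 16.4%, 12.1% and 22.3%. The I-box (GATAAG) was found in 13.7%, 17.7% and 12.5%, the evening element (AAAATATCT) in 3.25%, 4.42% and 2.41%, and the CCA1 site (AAAAATCT) in 8.16%, 5.96% and 6.74%. All motifs were sought on both strands. Within lists a G-box was found in 9 of 24 clock genes, 6 of 30 photosystem genes, 5 of 21 antenna genes and 4 of 18 flavonoid enzymes. It was found in 0 of 24 SAUR, 0 of 15 ethylene and 0 of 27 wall enzyme genes. Other lists that mostly rose differed, with 4 of 14 photoprotection and 5 of 30 tetrapyrrole genes. Chloroplast regulators had 0 of 11, nitrogen and sulphur genes 0 of 14 and type-A regulators 0 of 9. At the 7.56% of all genes few or none would be found in lists this small, so a count of 0 sets no list apart. B-box genes had 1 of 23. The seed list had 3 of 13, and the starvation list, which mostly fell, 2 of 17.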

How the data were processed

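Poly(A) RNA from whole seedlings was sequenced as stranded libraries (TruSeq Stranded mRNA, per the labels' protocols). Tools named in the submitters' processing notes are TopHat2 2.0.11, SAMtools 0.1.19.0, HTSeq 0.6.0, edgeR 3.16.5, CASAVA 1.8.2 and Bowtie2 2.2.2.0, with TAIR10 as the genome. How the counting used strand, or placed reads shared by similar genes, is not given in the sources used here. The authors deposited normalized signal values called CPM, which are reads divided by a scaled library total, for 19685 genes. The column sums differ, between 925942 and 1066829, so the scaling was not by the plain total. Plain CPM had been assumed in planning, and its test was used unchanged. In the 12 wild type and hy5 columns 100% of values are whole multiples of 1 step (within 0.01 reads), and the reads recovered from the steps gave the depth and entered the count-based alternatives.

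Differences were tested with limma 3.58.1 in R 4.3.3 (functions lmFit, contrasts.fit and eBayes, with a trend) on the log2(CPM + 1) scale. The model had 1 mean for each of 12 groups and all 32 libraries, so the groups share 1 estimate of the spread. Benjamini-Hochberg adjustment ran over 19685 genes, and calls were made at an adjusted p below 0.05. A filter of 1 CPM in at least 2 libraries left out no gene. The interaction contrast came from the same model, and organelle shares were compared by an exact two-sided permutation test. The variance between replicate libraries was 3.24 to 19.5 times that of counting. Floors of 3 reads cover counting error only.

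The members and the 34 lists (552 genes, 535 measured) were chosen with earlier results of these data known. Named are list genes, the 15 highest and 15 lowest called genes whose light and dark libraries do not overlap and whose higher group averages at least 5 CPM, and the 10 largest interactions in each direction at that level. AT2G15020 was named after its values were seen. Gene names come from RefSeq TAIR10.1, which lists 19582 of the identifiers, and upstream sequences are the 250 bases before each gene start annotated there. Of the 218 genes named in the text 52 overlap another annotated gene, 4 of them (F3H, GUN4, PIF6 and AT5G57760) over at least 50% of their length, and their values are uncertain if counting ignored strand.

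Each library was left out in turn, the pseudocount was set to 0.25, and values were rescaled by median of ratios. The filter was raised to a mean of 5 CPM, or dropped, which repeats the main fit because it left out no gene. The compared groups were also fitted alone, with and without the replicate number as a block. On recovered reads, DESeq2 1.42.0 and the quasi-likelihood test of edgeR 4.0.16 were run. Figures were drawn with matplotlib 3.10.9 in Python 3.11.15.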

Additional observations from a re-analysis of the deposited data

Results flagged for a closer look

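The light response differed most between Col and hy5 in 20 genes, 10 in each direction, picked out because the difference of the 2 responses itself passed the limma test at an adjusted p below 0.05. The response was larger in Col, on the log2(CPM + 1) scale, for ELIP1 by 6.86 ± 0.49, for the ABC proteins ABCI21 by 4.72 ± 0.17 and ABCI20 by 4.43 ± 0.12, for F3H by 4.66 ± 0.27 and for ELIP2 by 4.21 ± 0.34. MSRB6, a methionine sulfoxide reductase that repairs oxidised proteins, followed at 4.24 ± 0.50, then the gibberellin 2-oxidase GA2OX1 at 4.06 ± 0.27, RUP1 at 4.03 ± 0.25, the uncharacterized AT3G52740 at 3.73 ± 0.19 and the glucosyltransferase UGT78D2 at 3.39 ± 0.22. MSRB6 stood at 0.988, 1.19 and 1.04 CPM in dark and 78.5, 57.8 and 47.5 CPM in illuminated Col, and at 3.62, 2.6 and 1.43 CPM in illuminated hy5. AT3G52740 stood at 17.3, 18.6 and 20.4 CPM in illuminated Col and near 0 in every other group of these genotypes, with 0 reads in dark hy5, and the count-based tests did not call it (edgeR adjusted p = 0.90 and DESeq2 adjusted p = 0.26, against limma adjusted p = 7.3e-15).

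The difference of the responses, Col minus hy5, was below 0 for CCD4 (-2.11 ± 0.23), the expansin EXPA2 (-2.06 ± 0.47), AT1G55960, annotated as a polyketide cyclase (-1.75 ± 0.18), MAKR6, a membrane-associated kinase regulator (-1.7 ± 0.20), and XTH33 (-1.69 ± 0.29). AT1G61840, a cysteine- and histidine-rich C1 domain protein (-1.68 ± 0.30), AT5G03350, a legume lectin protein (-1.67 ± 0.33), SAUR62 (-1.59 ± 0.26), ECS1 (-1.59 ± 0.30) and SAUR9 (-1.58 ± 0.23) complete the list. EXPA2 stood at 13.8, 10.1 and 15.9 CPM in dark Col and at 1.92, 0.545 and 2.74 CPM in dark hy5, so that the genotypes differed before light. AT1G55960 rose in both genotypes, by 3.36 in Col and 5.11 in hy5.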

How the results depend on the processing

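The 7051 calls ranged from 5887 to 6503 when single libraries were left out and from 6261 to 7684 under the other alternatives, the 1533 calls of at least 2-fold from 1513 to 1593 and from 1289 to 2114, and the 790 interaction calls from 667 to 778 and from 711 to 1071, where the lowest of each came from the filter at a mean of 5 CPM and the highest from a count-based test. Median-of-ratios scaling gave 3745 higher and 3225 lower, edgeR 4218 and 3466, and DESeq2 3943 and 3502. The difference in chloroplast share ranged from -0.301 to -0.114 percentage points and in mitochondrial share from -0.0923 to -0.0379 without single libraries.

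No label gives a shared day for libraries of the same replicate number. Same-numbered Col libraries correlated in their deviations from the group means by 0.0448, 0.0599 and 0.0912. Dark library 1 correlated more with light library 2 (0.2) than with its own number. Deviations from means of 3 libraries are tied to each other, so these values cannot show whether the numbers pair the libraries weakly. With the replicate number as a block, on the compared groups alone, 6928 genes were called (3528 higher, 3400 lower), and 1013 for the interaction. Without the block the same groups gave 6809 and 990. For the 218 genes named, no alternative reversed a called direction. Of the 190 called, 6 lost the call in at least 1 setting: FNR2, SAUR62 and LHCB1.3 without 1 library, PSAE2 and UVR8 without several single libraries or in a fit on the compared groups alone, and CAT3 with the block. In 20 of the other gene and setting pairs a gene not called became called. Of 952 list counts under alternatives 26 moved by more than 1.5 times, all in lists of few calls or under the filter at a mean of 5 CPM. The 952 include the run without the filter, which could not differ from the main fit. Low depth limits the genes near 3 reads, such as DFR and LDOX, where no change would be detectable below that floor.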
